A study of Arabidopsis thaliana with 15 samples.

Results

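Protein-folding helpers of the endoplasmic reticulum (ER) and of the cytosol were described in rosette leaves of Arabidopsis thaliana that had lost the endosomal cation/proton antiporters NHX5, NHX6 or both. The set holds 4 genes of the 22746 probe sets tested. It has 2 genes of the ER, the J-domain co-chaperone ATERDJ3B (AT3G62600) and the calnexin AT5G07340, and 2 of the cytosol, the HSP70 cognate AT3G09440 and the exchange factor Fes1B (AT3G53800). They were picked because each has a probe set annotated to 1 gene only and because earlier results of these same arrays had shown them to differ between double knockouts and wild type. Those differences are therefore given as a description with no test. Within this chosen set, the 2 cytosolic genes differed from wild type in opposite directions, with AT3G09440 lower and Fes1B higher in the knockouts.

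Transcripts were measured with 1 Affymetrix Arabidopsis genome array per sample, 15 in all, with 3 arrays labelled as biological replicates for each of 5 genotypes. In the double knockout nhx5-2/nhx6-2, NHX5 carried a GABI T-DNA insertion and NHX6 a SALK insertion. In the double knockout nhx5-1/nhx6-1, NHX5 was hit by a WiscDsLox element and NHX6 by a different SALK insertion. The single knockouts nhx5-2 and nhx6-2 carried the same GABI or SALK allele as the first double knockout, and wild type carried neither; each genotype was 1 line. All plants were of the Columbia accession, 4 weeks old, and were kept on soil under days of 8 h light with 16 h of dark. Because whole rosette leaves were used, fewer cells of a type and less RNA per cell cannot be told apart.

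HSP70 proteins bind unfolded stretches of other proteins and release them as they turn over ATP. J-domain proteins such as ERdj3 deliver clients to HSP70 and speed up its ATP hydrolysis, and exchange factors such as Fes1 let it swap ADP for ATP. Calnexin is a membrane lectin of the ER that holds glycoproteins while they fold. In leaves, the ER and cytosolic systems are best known for their induction by unfolded proteins and by heat, through separate sets of transcription factors.

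Values are the authors' deposited scores, a log-like unit that averages close to 0 on each array with a log base not given in the sources used here. Across different hybridization spike-ins, each present at a single concentration, scores rose by 0.681 units per doubling of nominal concentration. This makes 1 unit about 2.77-fold, and folds below are on this spike-in scale. The slope had an SD of 0.0281 between the 15 arrays, which does not cover differences in probe response between the spike-ins. Spread between probe sets (SD) was lower on 2 arrays, at 0.762 on nhx5-1/nhx6-1 replicate 3 and 0.797 on nhx5-2 replicate 1, than on the other 13, which lay between 0.876 and 0.893. The 3′ minus 5′ signal of the actin and GAPDH controls, a measure of RNA degradation and labelling, averaged 1.98 for nhx5-2/nhx6-2, 2.34 for nhx5-1/nhx6-1, 1.51 in nhx5-2, 1.61 in nhx6-2 and 1.86 in wild type. The leaf marker RCA, the 1 of 7 listed leaf genes with a probe set annotated to it alone, was bright in every genotype, with scores between 4.96 and 5.71 on the 15 arrays. The root gene EXPA7, the 1 of 4 listed root genes so annotated, lay close to the level of control probe sets without a target. Of the other marker lists, 1 of 2 guard cell genes and none of the 5 flower, 3 vascular and 1 senescence genes had such a probe set. All 4 chaperone transcripts were above the median of the probe sets without a target on all 15 arrays.

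ATERDJ3B was higher in the double knockouts. This J-domain protein of the ER lumen works with the HSP70 of that compartment. Its score was 1.40, 1.54 and 0.96 in nhx5-2/nhx6-2, 1.12, 0.89 and 1.35 in nhx5-1/nhx6-1, 0.79, 0.88 and 1.03 in nhx5-2, 0.92, 0.99 and 0.83 in nhx6-2, and 0.64, 0.68 and 0.75 in wild type. Each of the 12 knockout arrays lay above each wild type array, but the double knockouts reached down into the range of the single knockouts, through replicate 3 of nhx5-2/nhx6-2 and replicate 2 of nhx5-1/nhx6-1. Relative to wild type, the mean was higher by 0.61 ± 0.13 units (SE) in nhx5-2/nhx6-2 and by 0.43 ± 0.13 in nhx5-1/nhx6-1, which is 1.86-fold and 1.55-fold on the spike-in scale. The single knockouts stood 0.21 ± 0.13 (nhx5-2) and 0.22 ± 0.13 (nhx6-2) units above wild type. In the order wild type, nhx5-2, nhx6-2, nhx5-1/nhx6-1, nhx5-2/nhx6-2, only wild type and its neighbour nhx5-2 had separate ranges.

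AT5G07340, the calnexin, was also higher in the double knockouts, by less. Its score was 0.438, 0.441 and 0.187 in nhx5-2/nhx6-2, 0.0495, 0.103 and 0.324 in nhx5-1/nhx6-1, -0.00245, 0.0162 and 0.167 in nhx5-2, 0.0646, 0.0324 and -0.0260 in nhx6-2, and -0.0777, -0.00436 and -0.113 in wild type. Replicates 1 and 2 of nhx5-2/nhx6-2 were the highest of all arrays, and replicate 3 of that genotype was within the range of nhx5-1/nhx6-1. The mean stood 0.42 ± 0.08 units (SE) above wild type in nhx5-2/nhx6-2 (1.53-fold) and 0.22 ± 0.08 above it in nhx5-1/nhx6-1 (1.26-fold). In nhx5-2 the mean stood 0.13 ± 0.08 above wild type and in nhx6-2 0.09 ± 0.08. Replicate 3 weighed on 2 of these values: without it the nhx5-1/nhx6-1 difference was 0.14 and the nhx5-2 difference 0.07. Both double knockouts and nhx5-2 lay wholly above wild type, while nhx6-2 overlapped it. Ordered by mean, from wild type through nhx6-2, nhx5-2 and nhx5-1/nhx6-1 to nhx5-2/nhx6-2, each genotype overlapped the next.

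AT3G09440 had the widest separation. It codes for a cytosolic HSP70 cognate, one of a family with closely similar coding sequences, so some signal from other HSP70 transcripts cannot be told apart here. Its score was 1.95, 2.05 and 1.83 in nhx5-2/nhx6-2, 2.11, 2.14 and 2.15 in nhx5-1/nhx6-1, 2.68, 2.91 and 2.95 in nhx5-2, 2.56, 2.56 and 2.86 in nhx6-2, and 3.39, 3.01 and 3.35 in wild type. The 6 double knockout arrays were below the 9 others without overlap, and all 12 knockout arrays were below wild type. Replicate 2 was the low one of the wild type arrays, and the leaf marker RCA was also lowest there, at 4.96 against 5.67 and 5.65 on the other wild type arrays; the part of this in the result was not tested. Against wild type the mean was lower, with a difference of -1.31 ± 0.11 units (SE) in nhx5-2/nhx6-2 and -1.11 ± 0.11 in nhx5-1/nhx6-1, or 3.79-fold and 3.11-fold lower. The single knockouts differed from wild type by -0.40 (nhx5-2, 1.51-fold lower) and -0.59 (nhx6-2, 1.82-fold lower). The nhx5-2 value was -0.27 after quantile normalization and -0.57 when each array's 3′ minus 5′ control signal was in the fit. Of the neighbours in the order nhx5-2/nhx6-2, nhx5-1/nhx6-1, nhx6-2, nhx5-2, wild type, only the single knockouts overlapped.

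Fes1B ran the other way. It is one of the plant's Fes1 proteins, named after the yeast exchange factor of cytosolic HSP70. Its score was 0.391, 0.461 and 0.657 in nhx5-2/nhx6-2, 0.563, 0.584 and 0.524 in nhx5-1/nhx6-1, 0.175, 0.0804 and 0.0897 in nhx5-2, 0.232, 0.320 and 0.171 in nhx6-2, and -0.179, -0.202 and -0.215 in wild type. All 6 double knockout arrays were above the 9 others, the 6 single knockout arrays lay between them and wild type, and the wild type arrays were close together. The mean exceeded wild type by 0.70 ± 0.06 units (SE) in nhx5-2/nhx6-2 and by 0.76 ± 0.06 in nhx5-1/nhx6-1 (2.04-fold and 2.16-fold), and by 0.31 in nhx5-2 and 0.44 in nhx6-2 (1.38-fold and 1.56-fold). The ranges of nhx5-2 and nhx6-2 overlapped, as did those of the double knockouts, and the other neighbours in the order were apart.

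**Figure D1:**
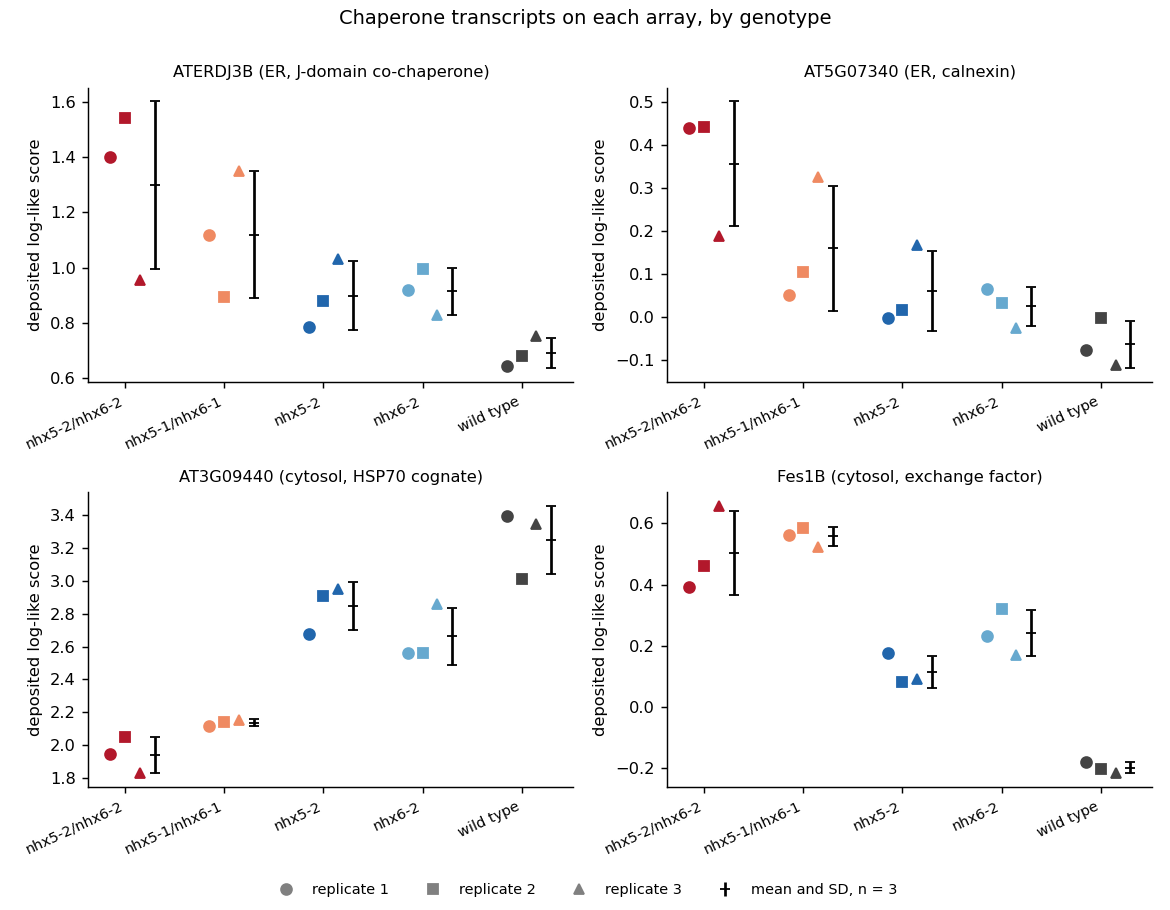
Deposited score (log-like units) of each chaperone gene on each of the 15 arrays, by genotype, 1 panel per gene with its own axis; symbols mark the replicate number and bars the mean and SD (n = 3). AT3G09440 falls into a low double knockout level (1.83 to 2.15), a middle single knockout level (2.56 to 2.95) and a high wild type level (3.01 to 3.39), Fes1B shows the same steps upside down, and the ER genes show wider spread within the double knockouts.

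For 4 of 4 genes no array of either double knockout overlapped wild type. Over all probe sets this held for 34.0% in nhx5-2/nhx6-2 and for 26.3% in nhx5-1/nhx6-1, and for both double knockouts at once 6.81% were higher and 9.50% lower. In the single knockouts 13.6% (nhx5-2) and 14.0% (nhx6-2) of all probe sets had no overlap with wild type, and 4 and 3 of the 4 genes. Separation of all 12 knockout arrays from wild type, seen in 3 of the 4 genes, was rarer, with 0.607% of all probe sets higher and 2.18% lower without overlap. All 6 double knockout arrays lay apart from the 9 others for AT3G09440 and Fes1B, against 2.69% of all probe sets lower and 2.15% higher in this way. By the limma test, 9.81% of all probe sets passed in nhx5-2/nhx6-2 and 12.0% in nhx5-1/nhx6-1 against wild type, but 0.0659% in nhx5-2 and 0.290% in nhx6-2. As the genes were chosen from these comparisons, nothing is read from their counts.

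Every single knockout mean lay between wild type and both double knockout means for all 4 genes, which were chosen for differing in the double knockouts. Of all probe sets, whether or not they differed there, 16.9% had this arrangement. With each array's 3′ minus 5′ value in the fit it did not hold for ATERDJ3B, whose difference from wild type was then -0.06 in nhx5-2 and 0.04 in nhx6-2. Expressed as a share of the nhx5-2/nhx6-2 difference, nhx5-2 alone had 34.2% for ATERDJ3B, 29.8% for AT5G07340, 30.9% for AT3G09440 and 44.7% for Fes1B. The nhx6-2 allele alone had 36.7%, 21.1%, 44.9% and 62.7% for the same genes in that order. The single knockout differences of Fes1B thus added up to 0.75 units, close to the 0.70 of nhx5-2/nhx6-2. Those of AT3G09440 added up to -0.99 against -1.31 in nhx5-2/nhx6-2, a gap of -0.32 ± 0.15 units (SE). For the ER genes the sums were 0.43 (ATERDJ3B) and 0.21 (AT5G07340) against 0.61 and 0.42 in nhx5-2/nhx6-2, with gaps of 0.18 ± 0.19 and 0.21 ± 0.11. The gap of Fes1B was -0.05 ± 0.09 units, smaller than its SE. These gaps share the arrays that chose the genes and were not tested.

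**Figure D2:**
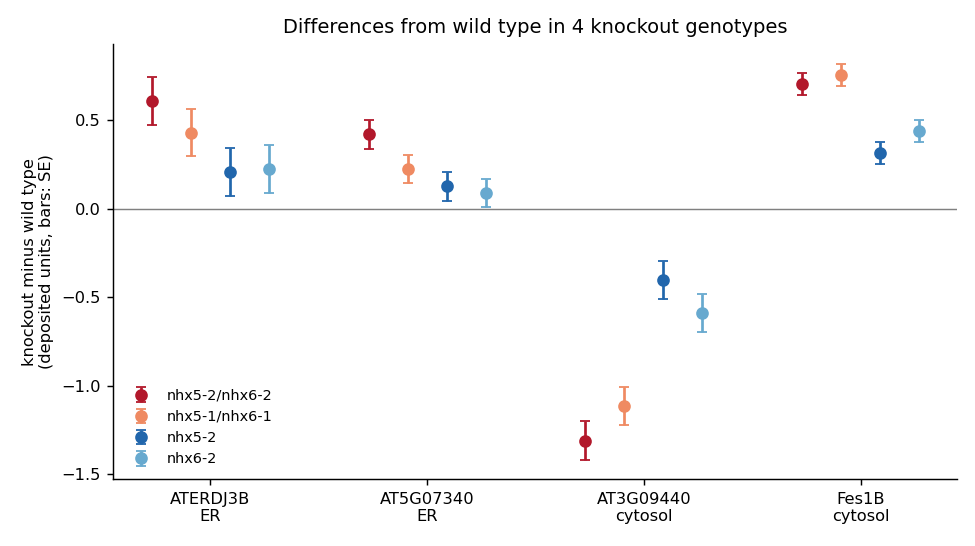
Difference of each knockout genotype from wild type in deposited units, by gene, with bars for the SE of the limma model (3 arrays per genotype). The ER genes and Fes1B lie above 0 and AT3G09440 below 0 in each of the 4 knockouts, from -1.31 in nhx5-2/nhx6-2 to -0.40 in nhx5-2, and the double knockouts are farther from 0 than the single knockouts.

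Averaged by compartment, the ER pair stood 0.51 units above wild type in nhx5-2/nhx6-2, 0.33 in nhx5-1/nhx6-1, 0.17 in nhx5-2 and 0.16 in nhx6-2. The cytosolic pair averaged -0.30, -0.18, -0.05 and -0.07 units from wild type in the same order. That average hides the split within the cytosol. The difference between Fes1B and AT3G09440 on the same array moved by 2.01 units relative to wild type in nhx5-2/nhx6-2 and by 1.87 in nhx5-1/nhx6-1. The difference between the ER pair and AT3G09440 moved by 1.82 and 1.44 units in these genotypes. After quantile normalization its nhx5-1/nhx6-1 value was 1.26.

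Comparisons that had not chosen the genes were those between genotypes of the same kind, and there the test was limma across all 22746 probe sets with Benjamini-Hochberg adjustment. The pair of double knockouts differ in both insertions. None of the 4 genes passed between nhx5-1/nhx6-1 and nhx5-2/nhx6-2, where 0.378% of all probe sets did, and 1 of 4 had an unadjusted p under 0.05, against 12.5% of all probe sets. This was AT5G07340, whose scores averaged 0.16 in nhx5-1/nhx6-1 and 0.36 in nhx5-2/nhx6-2, a difference of -0.20 units (95% interval -0.37 to -0.02, unadjusted p = 0.0301 and adjusted p = 0.332 by limma). ATERDJ3B, also of the ER, averaged 1.12 in nhx5-1/nhx6-1 and 1.30 in nhx5-2/nhx6-2, a difference of -0.18 units with an interval from -0.47 to 0.11 (limma adjusted p = 0.65). Leaving out 1 array at a time moved it between -0.35, without replicate 3 of nhx5-2/nhx6-2, and -0.06, without replicate 2 of that genotype, with no call. For both ER genes the arrays of the double knockouts overlapped.

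In the cytosolic genes, AT3G09440 averaged 2.14 in nhx5-1/nhx6-1 and 1.94 in nhx5-2/nhx6-2, a difference of 0.20 units with an interval from -0.04 to 0.43 (limma adjusted p = 0.507). Although this did not pass, the arrays of the double knockouts did not overlap for AT3G09440, as for 17.4% of all probe sets. Fes1B differed by 0.05 units with an interval from -0.08 to 0.19 (limma adjusted p = 0.787). A p that misses the threshold does not show that the lines were alike.

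Between the single knockouts, nhx5-2 and nhx6-2, none of the 4 genes passed either, against 0.0132% of all probe sets, and none had an unadjusted p under 0.05, against 2.91%. The smallest unadjusted p was 0.0625 for Fes1B, which averaged 0.12 in nhx5-2 and 0.24 in nhx6-2, a difference of -0.13 units with a 95% interval from -0.26 to 0.01 (adjusted p = 1 by limma). AT3G09440 averaged 2.85 in nhx5-2 and 2.66 in nhx6-2, a difference of 0.18 units (interval -0.05 to 0.42). The ER genes differed by -0.02 units (ATERDJ3B, interval -0.30 to 0.27) and by 0.04 units (AT5G07340, interval -0.14 to 0.21). For AT3G09440, Fes1B and, by 0.02 units, ATERDJ3B the mean of nhx6-2 was the one farther from wild type. For AT5G07340 it was that of nhx5-2.

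Variation between arrays of the same genotype was compared between the genes. Replicate 3 of nhx5-2/nhx6-2 was low and replicate 3 of nhx5-1/nhx6-1 high within its genotype for ATERDJ3B and AT5G07340 alike. After subtraction of each genotype's mean, their scores correlated over the 15 arrays with r = 0.83 (exact permutation within genotypes, two-sided p = 0.0219) and rho = 0.83 (exact permutation p = 0.01). Deviations of the 2 genes had the same sign on 13 of 15 arrays. Over the 6 pairs among the 4 genes these p values became 0.131 and 0.0602 after Benjamini-Hochberg adjustment, so the relation did not pass. Without the 2 arrays farthest out in ATERDJ3B, both of nhx5-2/nhx6-2, r was 0.74. The 3′ minus 5′ control signal deviated with r = -0.45 for ATERDJ3B and -0.28 for AT5G07340, and its part in the relation was not tested.

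For the cytosolic genes AT3G09440 and Fes1B, r was -0.52 (exact permutation p = 0.0595, adjusted 0.179) and rho -0.63 (exact permutation p = 0.0349, adjusted 0.105), and r was -0.57 without the 2 arrays farthest out. Fes1B was also negatively related to the ER genes, with r = -0.62 for ATERDJ3B and -0.59 for AT5G07340 (exact permutation, adjusted p = 0.209 and 0.18). For the remaining pairs, AT3G09440 with ATERDJ3B and with AT5G07340, r was 0.28 and 0.11 (exact permutation, adjusted p = 0.284 and 0.653). None of the 6 pairs passed after adjustment.

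**Figure D3:**
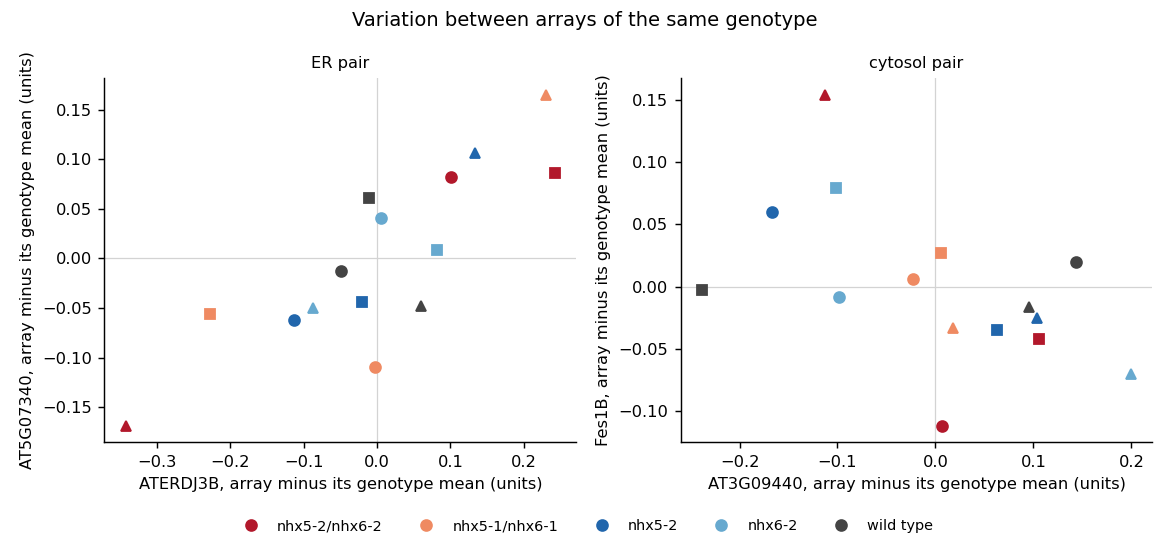
Deviation of each of the 15 arrays from the mean of its genotype, in deposited units, for the ER pair (left) and for the cytosolic pair (right); colour marks the genotype and symbol the replicate. The ER genes share the sign of the deviation on 13 of 15 arrays (r = 0.83, adjusted p = 0.131 by exact permutation), and the cytosolic genes show r = -0.52 (adjusted p = 0.179).

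Other chaperone genes were counted from lists by function. These lists were drawn up with results of these arrays known, so the counts are a description. Of 33 further ER genes (chaperones, oxidative folding and quality control, stress sensors), 7 had a probe set annotated to 1 gene, 8 probe sets in all, and none passed in any of the 4 comparisons with wild type by limma. At an unadjusted p under 0.05, 2 of the 8 were higher in nhx5-2/nhx6-2 and 1 in nhx5-1/nhx6-1, against 9.67% and 11.3% of all probe sets. Their median difference was 0.09 units in nhx5-2/nhx6-2 and 0.04 in nhx5-1/nhx6-1, against 0.00 and 0.01 for all probe sets. Much of the ER list, including BiP, the other calnexin and ERDJ3A, was not analysed here because no probe set is listed for it alone.

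In nhx5-2/nhx6-2 the largest differences among the other measured ER list genes, none of which passed, were those of CRT1b and AT4G16660. CRT1b, the soluble calreticulin relative of calnexin, scored 1.98, 1.97 and 1.55 in nhx5-2/nhx6-2, 1.70, 1.37 and 1.86 in nhx5-1/nhx6-1, and 1.48, 1.53 and 1.58 in wild type. Its difference from wild type was 0.31 ± 0.12 units (SE, limma adjusted p = 0.151) in nhx5-2/nhx6-2 and 0.11 ± 0.12 (adjusted p = 0.63) in nhx5-1/nhx6-1. Replicate 3 of nhx5-2/nhx6-2 was its low array, as for ATERDJ3B and AT5G07340, and without that array the difference in nhx5-2/nhx6-2 was 0.45 units (limma adjusted p = 0.0269). AT4G16660, an HSP70-like protein of the ER (HSP70-17), scored 0.339, 0.354 and 0.161 in nhx5-2/nhx6-2, 0.206, 0.125 and 0.322 in nhx5-1/nhx6-1, and 0.0200, 0.0743 and 0.0714 in wild type. All double knockout arrays were above wild type, with differences of 0.23 ± 0.07 units (adjusted p = 0.0686 by limma) and 0.16 ± 0.07 (adjusted p = 0.19). Leaving out any of 4 single arrays took AT4G16660 past the threshold in nhx5-2/nhx6-2, namely replicate 3 of nhx5-2/nhx6-2 (limma adjusted p = 0.0379), replicate 3 of nhx5-1/nhx6-1 (0.0407), or replicate 1 (0.0475) or 3 (0.0309) of nhx5-2.

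Of the ER's J-domain proteins that act at the translocation pore, ATERDJ2A differed from wild type by -0.01 units in both double knockouts and ATERDJ2B by 0.01 in nhx5-2/nhx6-2 and 0.04 in nhx5-1/nhx6-1. The membrane-tethered transcription factors of the ER stress response did not pass either. BZIP28 differed by 0.17 units in nhx5-2/nhx6-2 (limma adjusted p = 0.337) and 0.16 in nhx5-1/nhx6-1 (adjusted p = 0.326), and BZIP60 by 0.19 (adjusted p = 0.467) and 0.00 (adjusted p = 0.994). The remaining ER gene, DER1 of the export pathway for misfolded proteins, had 2 probe sets, 1 of them near the level without a target, and neither passed; the brighter one differed from wild type by -0.14 units in nhx5-1/nhx6-1 (limma adjusted p = 0.217).

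Of 52 further cytosolic genes, 18 had a single-gene probe set. In nhx5-2/nhx6-2, 5 fell, none rose and 13 did not pass, and in nhx5-1/nhx6-1, 4 fell, none rose and 14 did not pass, where 5.54% and 6.90% of all probe sets fell and 4.27% and 5.13% rose. In the single knockouts none of the 18 passed by limma, with 1 lower in nhx5-2 and 4 lower in nhx6-2 at an unadjusted p under 0.05, against 3.85% and 4.16% of all probe sets. The median difference of the 18 was -0.16 units in nhx5-2/nhx6-2 and -0.07 in nhx5-1/nhx6-1. By list, it was -0.16 and -0.13 for 8 subunits of the chaperonin CCT. For 8 co-chaperones and HSP90 partners it was -0.07 and 0.04. Since the lists were drawn up with results of these arrays known, these counts are a description.

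Fes1A, the paralogue of Fes1B, fell in both double knockouts. It scored -0.120, -0.178 and -0.252 in nhx5-2/nhx6-2, -0.164, -0.135 and -0.138 in nhx5-1/nhx6-1, -0.0589, 0.0943 and 0.0215 in nhx5-2, -0.0439, -0.0676 and 0.125 in nhx6-2, and 0.221, 0.229 and 0.214 in wild type. All 12 knockout arrays were below wild type, with the single knockouts between it and the double knockouts. The difference was -0.40 ± 0.06 units (SE, limma adjusted p = 0.00056) in nhx5-2/nhx6-2 and -0.37 ± 0.06 (adjusted p = 0.00106) in nhx5-1/nhx6-1. In nhx5-2 it was -0.20 (adjusted p = 0.443) and in nhx6-2 -0.22 (adjusted p = 0.171), neither past the threshold. Fes1C, the other paralogue, differed by 0.12 units in nhx5-2/nhx6-2 (adjusted p = 0.264 by limma) and 0.06 in nhx5-1/nhx6-1 (adjusted p = 0.606). In the double knockouts the means were thus below wild type for Fes1A and above it for Fes1B.

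Hsp70-2, the 1 other cytosolic HSP70 with its own probe set, scored 0.428, 0.316 and 0.224 in nhx5-2/nhx6-2, 0.386, 0.413 and 0.478 in nhx5-1/nhx6-1, and 0.589, 0.567 and 0.581 in wild type. It fell by 0.26 ± 0.06 units (limma adjusted p = 0.00992) in nhx5-2/nhx6-2, a call not made without replicate 3 of that genotype, where the difference was -0.21 (adjusted p = 0.0514), or after quantile normalization (-0.24, adjusted p = 0.0628). In nhx5-1/nhx6-1 it differed by -0.15 (adjusted p = 0.0985). HSC70-1, HSP70-4, HSP70-5 and HSP70-18 had no probe set listed for them alone and were not analysed here.

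Hop2, the adaptor between HSP70 and HSP90, fell by 0.31 ± 0.04 units (limma adjusted p = 0.000476) in nhx5-2/nhx6-2 and by 0.27 ± 0.04 (adjusted p = 0.00128) in nhx5-1/nhx6-1. Its relatives Hop1 and Hop3 did not pass, at -0.17 (adjusted p = 0.463) and 0.03 (adjusted p = 0.986) in nhx5-2/nhx6-2 by limma. In nhx5-1/nhx6-1 they were at 0.04 (limma adjusted p = 0.863) and 0.04 (adjusted p = 0.749). Hop3 lay near the level of probe sets without a target, above it on 13 of 15 arrays. AT4G02450 (P23-1), of the same list, stood 0.23 ± 0.09 units above wild type in nhx5-1/nhx6-1 (limma adjusted p = 0.122). It passed there as higher after quantile normalization (limma adjusted p = 0.0221) and without replicate 3 of nhx5-1/nhx6-1 (limma adjusted p = 0.0383). In nhx5-2/nhx6-2 AT4G02450 differed by 0.10 units (limma adjusted p = 0.704). SGT1A, an HSP90 co-chaperone of plant immune receptors, fell by 0.52 ± 0.09 units (limma adjusted p = 0.00188) in nhx5-2/nhx6-2 and by 0.55 ± 0.09 (adjusted p = 0.00127) in nhx5-1/nhx6-1. It scored 0.691, 0.868 and 0.635 in nhx5-2/nhx6-2, 0.767, 0.703 and 0.639 in nhx5-1/nhx6-1, 0.997, 0.764 and 0.773 in nhx6-2, and 1.30, 1.21 and 1.24 in wild type. The nhx6-2 difference of SGT1A was -0.41 (adjusted p = 0.0724), while nhx5-2 was at -0.05 (adjusted p = 0.998), so the arrays of nhx6-2 lay below wild type and those of nhx5-2 reached into its range. Without replicate 1 of nhx5-2, SGT1A passed in nhx6-2 (limma adjusted p = 0.0411).

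Subunits of the cytosolic chaperonin CCT, a folding chamber for actin and tubulin, were measured for 8 of 9 listed genes. All 8 differences were below 0 in nhx5-2/nhx6-2 and 7 of 8 in nhx5-1/nhx6-1. Over all 22746 probe sets, 11302 and 10876 were below 0 in these comparisons. AT3G18190 (CCT4) was the 1 subunit to pass in each. It fell by 0.28 ± 0.05 units (limma adjusted p = 0.00399) in nhx5-2/nhx6-2 and by 0.32 ± 0.05 (adjusted p = 0.00187) in nhx5-1/nhx6-1. AT3G03960 (CCT8) was at -0.27 ± 0.09 in nhx5-2/nhx6-2 (adjusted p = 0.086 by limma). It passed there without replicate 3 of nhx5-1/nhx6-1 (limma adjusted p = 0.043) and after quantile normalization (limma adjusted p = 0.0153). In the single knockouts 5 of the 8 were above 0 in nhx5-2 and 6 of 8 in nhx6-2, against 11383 and 10798 of all probe sets. The plastid chaperonin subunit Cpn60beta2, the 1 of 11 listed organellar genes measured, differed by -0.40 ± 0.14 units (adjusted p = 0.097 by limma) and -0.33 ± 0.14 (adjusted p = 0.158).

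**Figure D4:**
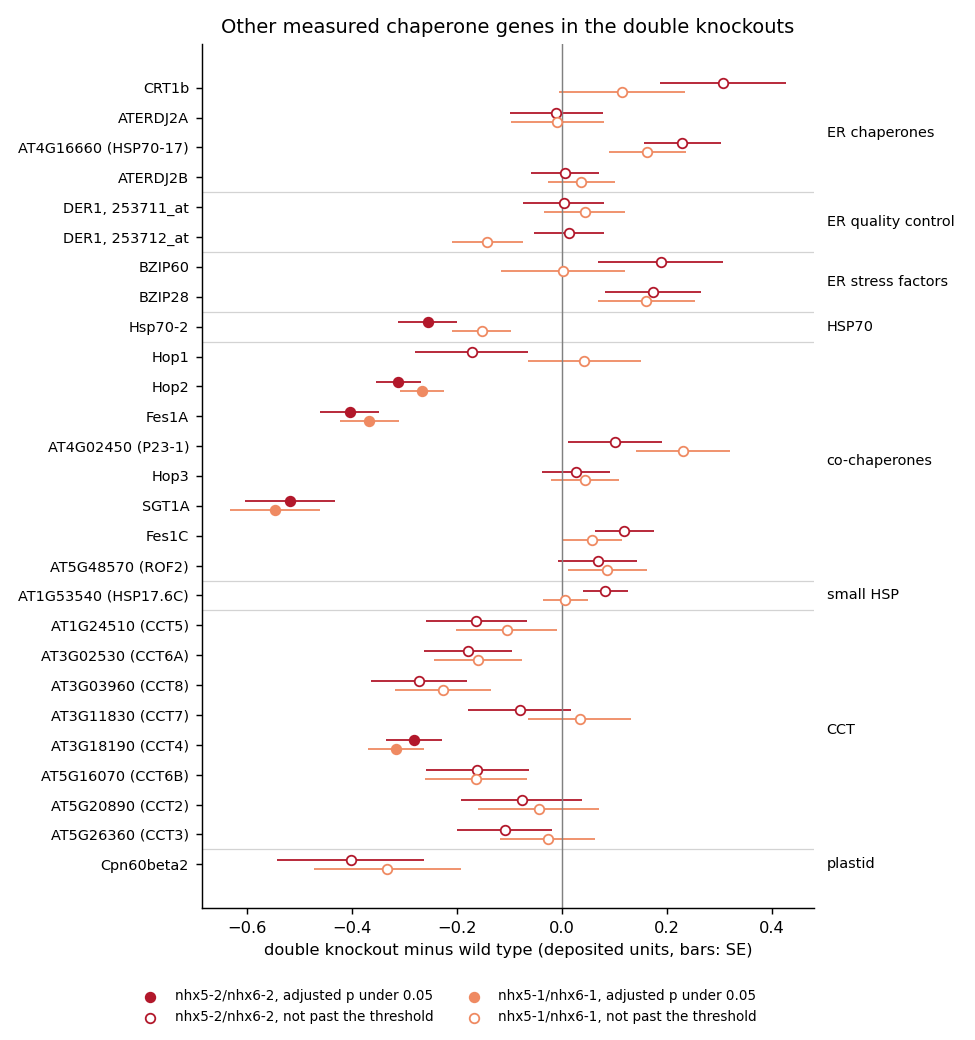
Difference from wild type in deposited units for the other listed chaperone genes with a single-gene probe set, by functional list, in nhx5-2/nhx6-2 (upper, dark) and nhx5-1/nhx6-1 (lower, light), with bars for the SE of the limma model; filled points passed at an adjusted p under 0.05. Filled points are all below 0 and all cytosolic: Hop2, Fes1A, SGT1A and AT3G18190 in both double knockouts and Hsp70-2 in nhx5-2/nhx6-2.

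Among 13512 single-gene probe sets, those most like each chaperone gene over the 15 arrays were ranked by Pearson's r, which reflects the differences between genotypes as well as between replicates. For ATERDJ3B these were AT5G07340 (r = 0.927), the ER HSP70 AT4G16660 (0.903), AT5G45510 (0.902), AT5G45500 (0.887) and AT5G27830 (0.868). Of the 5, 2 are thus ER chaperones from the lists, with AT5G07340 itself a gene of the set. For AT5G07340 they were PCME (0.952), the isoprenylcysteine methylesterase, AT3G60420 (0.927), ATERDJ3B (0.927), AT1G76960 (0.916) and AT5G55450 (0.914). The ER genes were thus in each other's top 5, but both were chosen for differences between genotypes, so nothing is read from this. AT3G09440 was most like EXLA1 (0.964), a cell wall protein of the expansin-like family, followed by AT5G13100 (0.945), Fes1A (0.945), AT3G57490 (0.945) and AT1G68410 (0.944). For Fes1B the closest were AT1G01240 (0.927), AT2G15960 (0.915), AT4G05150 (0.914), MCCA (0.902), a subunit of the methylcrotonyl-CoA carboxylase of leucine breakdown, and AT5G41400 (0.901). No chaperone from the lists was among the 5 closest to Fes1B.

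RNA quality differed between genotypes, and its values stand beside the results above. The 3′ minus 5′ control signal was 1.75 to 2.14 on the arrays of nhx5-2/nhx6-2, 2.27 to 2.40 on those of nhx5-1/nhx6-1 and 1.79 to 1.97 in wild type, so nhx5-1/nhx6-1 lay above wild type without overlap and nhx5-2/nhx6-2 overlapped it. It was 1.45 to 1.57 in nhx5-2 and 1.55 to 1.69 in nhx6-2, wholly below wild type. With this signal as a covariate, AT3G09440 differed from wild type by -1.26 ± 0.11 units (SE) in nhx5-2/nhx6-2 and by -0.89 ± 0.20 in nhx5-1/nhx6-1, and Fes1B by 0.69 ± 0.07 and 0.71 ± 0.12. ATERDJ3B differed by 0.69 ± 0.13 and 0.79 ± 0.24, and AT5G07340 by 0.45 ± 0.09 and 0.35 ± 0.16. In the single knockouts the ER genes then stood close to wild type, with ATERDJ3B at -0.06 ± 0.20 in nhx5-2 and 0.04 ± 0.16 in nhx6-2, and AT5G07340 at 0.03 ± 0.13 and 0.02 ± 0.11. The cytosolic genes did not come closer to wild type there, with AT3G09440 at -0.57 ± 0.17 in nhx5-2 and -0.71 ± 0.14 in nhx6-2, and Fes1B at 0.34 ± 0.10 and 0.46 ± 0.08. Genotype and RNA quality cannot be told apart in nhx5-1/nhx6-1 or the single knockouts, whose signals did not overlap wild type. With the covariate, the SE of the AT3G09440 difference in nhx5-1/nhx6-1 grew from 0.11 to 0.20 units. Over all probe sets the covariate left 1571 calls in nhx5-2/nhx6-2, against 2232 without it, and 24 in nhx5-1/nhx6-1, against 2736. In nhx5-1/nhx6-1 the 4 listed genes that had fallen no longer passed by limma with it. Of these, Fes1A differed by -0.41 units (adjusted p = 0.213, against -0.37 units without the covariate) and Hop2 by -0.23 (adjusted p = 0.409, against -0.27), so their differences stayed close to those without it. SGT1A differed by -0.32 (adjusted p = 0.641, against -0.55) and AT3G18190 by -0.18 (adjusted p = 0.727, against -0.32), which are smaller differences.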

How the data were processed

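The authors deposited 1 table of a score per probe set and array; not given in the sources used here are its background correction, normalization and log base. No further transformation was made. The labels' protocols give Qiagen extraction of total RNA and biotin labelling from 6 µg. The plan assumed an intensity or log2 scale. Folds divide a difference by the slope of the spike-in scores on log2 of nominal concentrations (1.5, 5, 25 and 100 pM, the array maker's values, assumed here; 9 probe sets), which need not hold for dim transcripts.

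Of 22810 probe sets, 64 controls were left out. The annotation given with the files lists 1 gene for 13513, several for 503 and none for 8730; 13436 matched the gene table of assembly TAIR10.1. NHX5 and NHX6 transcripts were not analysed here, so the labels could not be checked on them. A linear model with 1 mean per genotype over all 15 arrays was fitted to all 22746 probe sets with limma 3.58.1 in R 4.3.3 (lmFit, eBayes), with Benjamini-Hochberg adjustment over all of them and a threshold of 0.05, and tested on simulated data. "Rose" and "fell" are used of probe sets that passed. Intervals cover 95%.

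The genes and lists were chosen with earlier results of these data known. Named were the 4 genes, listed genes that passed against wild type (up to 4 per list and comparison), paralogues of the 4 whatever their values, and the 5 probe sets most correlated with each; CRT1b, the ERDJ2 genes, BZIP28, BZIP60, DER1, Hop1, Hop3, AT3G03960, AT4G02450 and Cpn60beta2 were added after their values were seen. Within-genotype correlations were also added then, each permuted exactly within genotypes (7776 arrangements). Alternatives were other scalings, an RNA quality covariate, a filter on dim probe sets, a replicate block, array weights and leaving out arrays; the number of arrays limits the precision.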

Additional observations from a re-analysis of the deposited data

How the results depend on the processing

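Differences of the 4 genes from wild type were compared with the spread between replicates, and calls with the threshold. A filter on dim probe sets changed none of them, and shifting arrays to one median added 1 call, Hsp70-2 in nhx5-1/nhx6-1 minus wild type (limma adjusted p = 0.0262). Quantile normalization gave AT3G09440 -0.90 units in nhx5-1/nhx6-1 minus wild type, ATERDJ3B 0.00800 in nhx5-2 minus nhx6-2 and 1 cytosolic list gene higher in nhx5-1/nhx6-1. The 3′ minus 5′ covariate gave, against wild type, ATERDJ3B 0.79, AT5G07340 0.35 and AT3G09440 -0.89 in nhx5-1/nhx6-1, and ATERDJ3B -0.0559 in nhx5-2. It also gave ATERDJ3B 0.0929 in nhx5-1/nhx6-1 minus nhx5-2/nhx6-2 and 0 cytosolic list genes lower in nhx5-1/nhx6-1, where Fes1A (-0.41) and Hop2 (-0.23) stayed near their differences without it and SGT1A (-0.32) and AT3G18190 (-0.18) did not; the cause was not tested. Array weights, whose estimation did not converge, gave ATERDJ3B 0.26 in nhx5-1/nhx6-1 minus wild type, and in nhx5-2 minus nhx6-2 AT5G07340 -0.0134 and AT3G09440 0.31 (adjusted p = 0.0448). In nhx5-2/nhx6-2 these weights called 4 ER list genes higher, 1 cytosolic list gene higher and 11 lower. They also called DER1 (brighter probe set) higher and Fes1A lower in nhx5-2, and Hsp70-2, Fes1A and SGT1A lower in nhx6-2. Settings added after the data were seen were scaling arrays to one SD, with AT3G09440 -0.98 in nhx5-1/nhx6-1 minus wild type, ATERDJ3B 0.016 in nhx5-2 minus nhx6-2 and 1 cytosolic list gene higher in nhx5-1/nhx6-1, and leaving out both arrays of low SD. Without those arrays ATERDJ3B had 0.0414 in nhx5-2 minus nhx6-2, and 1 ER list gene was higher in each double knockout and 1 cytosolic list gene higher in nhx5-1/nhx6-1. Leaving out single arrays gave ranges of 0.49 to 0.78 (ATERDJ3B) and 0.62 to 0.76 (Fes1B) in nhx5-2/nhx6-2 minus wild type, the extremes without its replicates 2 and 3 for ATERDJ3B and 1 and 3 for Fes1B. The ranges were -0.00172 to 0.13 (Fes1B) in nhx5-1/nhx6-1 minus nhx5-2/nhx6-2, and -0.0821 to 0.0414 (ATERDJ3B) and -0.0168 to 0.0677 (AT5G07340) in nhx5-2 minus nhx6-2. ER list genes called higher in nhx5-2/nhx6-2 ranged from 0 to 2, and cytosolic list genes called higher in nhx5-1/nhx6-1 from 0 to 1, AT4G02450 (P23-1) passing without replicate 3 of nhx5-1/nhx6-1. Under quantile normalization SGT1A passed in nhx6-2 (limma adjusted p = 0.0153) and Hsp70-2 did not pass in nhx5-2/nhx6-2 (0.0628). AT3G03960 (CCT8) then passed as lower in nhx5-2/nhx6-2 (-0.26, limma adjusted p = 0.0153). The within-genotype r of the ER genes ranged from 0.70 to 0.90 over single arrays left out. Its unadjusted p by exact permutation then ranged from 0.015 to 0.122. Without both arrays of low SD this r was 0.75 (exact permutation, unadjusted p = 0.104). Same-numbered arrays deviated together (r above 0.1) in 6 of 30 pairs. No pairing by number was used in the main fit, and this count does not exclude one. The replicate block left 5 and 4 cytosolic list genes lower in the double knockouts, with Fes1A at an adjusted p of 0.00191 in nhx5-2/nhx6-2, and changed no call.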
